A study of Mus musculus with 10 samples.

Results

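Neurogenin and NeuroD genes encode basic helix-loop-helix (bHLH) transcription factors that drive neuronal differentiation. Dlx2-enriched regions around 5 of them, Neurog1, Neurog2, Neurod1, Neurod2 and Neurod6, were taken from a chromatin immunoprecipitation and sequencing (ChIP-seq) study of mouse brain. A region counted when its summit, the base of highest signal, lay in the gene body extended by 50 kb on each side. This rule took 23 of the 25667 regions in 5 lists, for 5 of 21900 protein-coding genes. The lists come from anti-Dlx2 immunoprecipitations of the cortex at postnatal day 3 (P3), the cortex at embryonic day 16 (E16), the olfactory bulb at P3, the olfactory bulb at E16 and the basal ganglia at E16. Each tissue and age has 1 immunoprecipitated library, so nothing here is replicated and no p-value is given. The other 5 of the 10 samples are inputs and were not analysed here. The labels name no strain, genotype or number of animals, and they name tissues, with no sorting of cells.

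In the developing cortex the proneural factors Neurog1 and Neurog2 act in progenitors of glutamatergic neurons. They switch on Neurod1 in newborn neurons, and Neurod2 and Neurod6 follow in postmitotic glutamatergic neurons. Dlx2 belongs to the other lineage: it is a homeodomain factor of the ganglionic eminences, whose progenitors give rise to GABAergic neurons of the basal ganglia, cortex and olfactory bulb. The tissue labels could not be checked against marker genes, because a list of bound regions does not measure expression. Read depth is unknown, and a gene with no region is one where no signal passed the threshold used for that library, which leaves weaker binding unmeasured.

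All 5 genes had a Dlx2 summit within 50 kb in the E16 cortex, and 4 of 5 had one in the E16 basal ganglia. Only Neurod2 had a summit in the P3 cortex and in the E16 olfactory bulb, and none of the 5 had one in the P3 olfactory bulb. Every list was also reduced to its top 734 regions by −log10 q, the length of the shortest. The count was then 1 of 5 in the P3 cortex and 2 of 5 in the E16 cortex. It was 0 of 5 in the P3 bulb, the E16 bulb and the E16 basal ganglia. The share of all protein-coding genes under this cut was not computed, so the reduced counts have no background. The counts and shares that follow are for the full lists. The summits numbered 1 in the P3 cortex, 11 in the E16 cortex, 0 in the P3 bulb, 1 in the E16 bulb and 10 in the E16 basal ganglia. By the same rule 12.4% of all protein-coding genes had a summit in the P3 cortex, 28.7% in the E16 cortex, 4.04% in the P3 bulb, 6.62% in the E16 bulb and 42.4% in the E16 basal ganglia. Against these shares, 1 of 5 or 0 of 5 in the P3 and bulb lists is no result about the family. For protein-coding genes of at most 5 kb, a class that holds all 5 members, the shares were lower, at 7.85% in the P3 cortex, 22.1% in the E16 cortex, 2.02% in the P3 bulb, 2.75% in the E16 bulb and 27.9% in the E16 basal ganglia.

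Within 10 kb of the body, 4 of the 5 genes kept a summit in the E16 cortex and 3 of 5 in the E16 basal ganglia, and none did in the other lists. The share of all protein-coding genes within 10 kb was 6.14% in the P3 cortex, 17% in the E16 cortex, 2.09% in the P3 bulb, 3.58% in the E16 bulb and 26.3% in the E16 basal ganglia. Among genes of at most 5 kb it was 2.36%, 12.3%, 0.753%, 0.852% and 15.4% across the same 5 lists. The count of 0 in the P3 cortex and in both bulb lists is near these shares.

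The genes are short, from 1703 bp for Neurog1 to 4231 bp for Neurod2, so the body itself gives a stricter count. A summit lay inside the body of 4 of the 5 genes in the E16 cortex (Neurog2, Neurod1, Neurod2 and Neurod6) and of 3 in the E16 basal ganglia (Neurod1, Neurod2 and Neurod6). No body held a summit in the P3 cortex, P3 bulb or E16 bulb. Inside the body, the share among all protein-coding genes was 3.78% in the P3 cortex, 11.2% in the E16 cortex, 1.43% in the P3 bulb, 2.68% in the E16 bulb and 17.9% in the E16 basal ganglia. Among the 5047 protein-coding genes of at most 5 kb it was 0.277% in the P3 cortex, 5.94% in the E16 cortex, 0.0396% in each bulb list and 6.91% in the E16 basal ganglia. In the P3 cortex and both bulb lists 0 of 5 is therefore near the background. Regions covered 7246 bp of the 16284 bp of the 5 bodies in the E16 cortex (44.5%) and 4036 bp (24.8%) in the E16 basal ganglia. Neurod2 alone gave 3530 and 2703 bp of these. For genes of at most 5 kb with a known transcript start and a body summit, median coverage was 35.1% and 34.3%. Neurog2 and Neurod1 were below it in the E16 cortex, where Neurod2 and Neurod6 were above. In the E16 basal ganglia Neurod1 and Neurod6 were below it and Neurod2 was above.

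**Figure D1:**
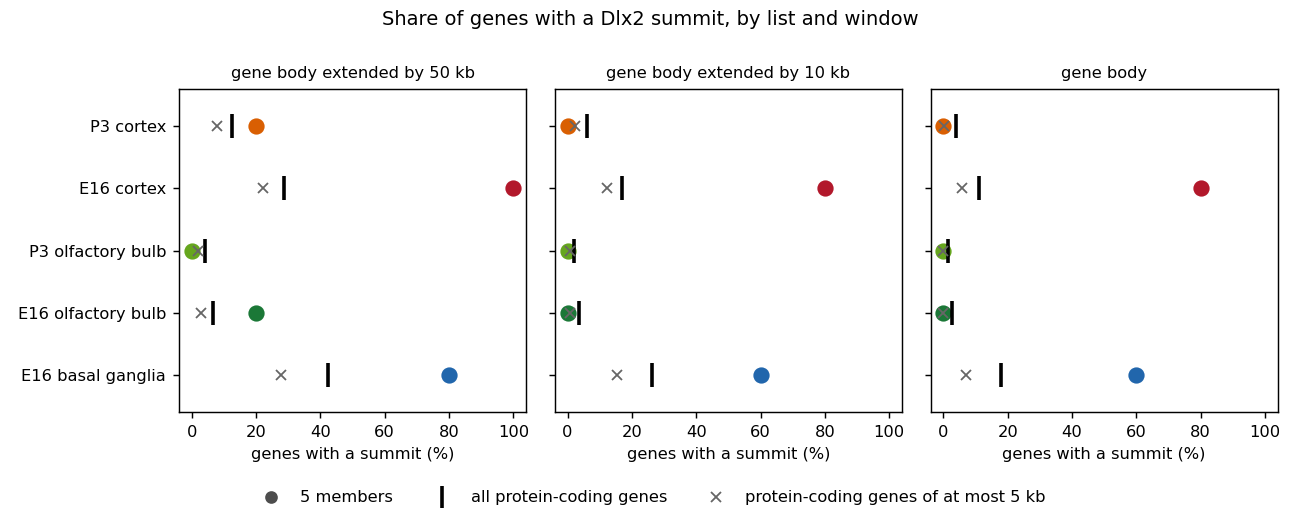
Share of genes (%, x axis) with a Dlx2 summit in the body extended by 50 kb, extended by 10 kb, and in the body itself, for each list of regions (rows). Coloured points are the 5 neurogenin and NeuroD genes, black bars all protein-coding genes and crosses protein-coding genes of at most 5 kb. For the body alone the 5 genes stand at 4 of 5 in the E16 cortex and 3 of 5 in the E16 basal ganglia, and at 0 in the other lists.

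**Figure D2:**
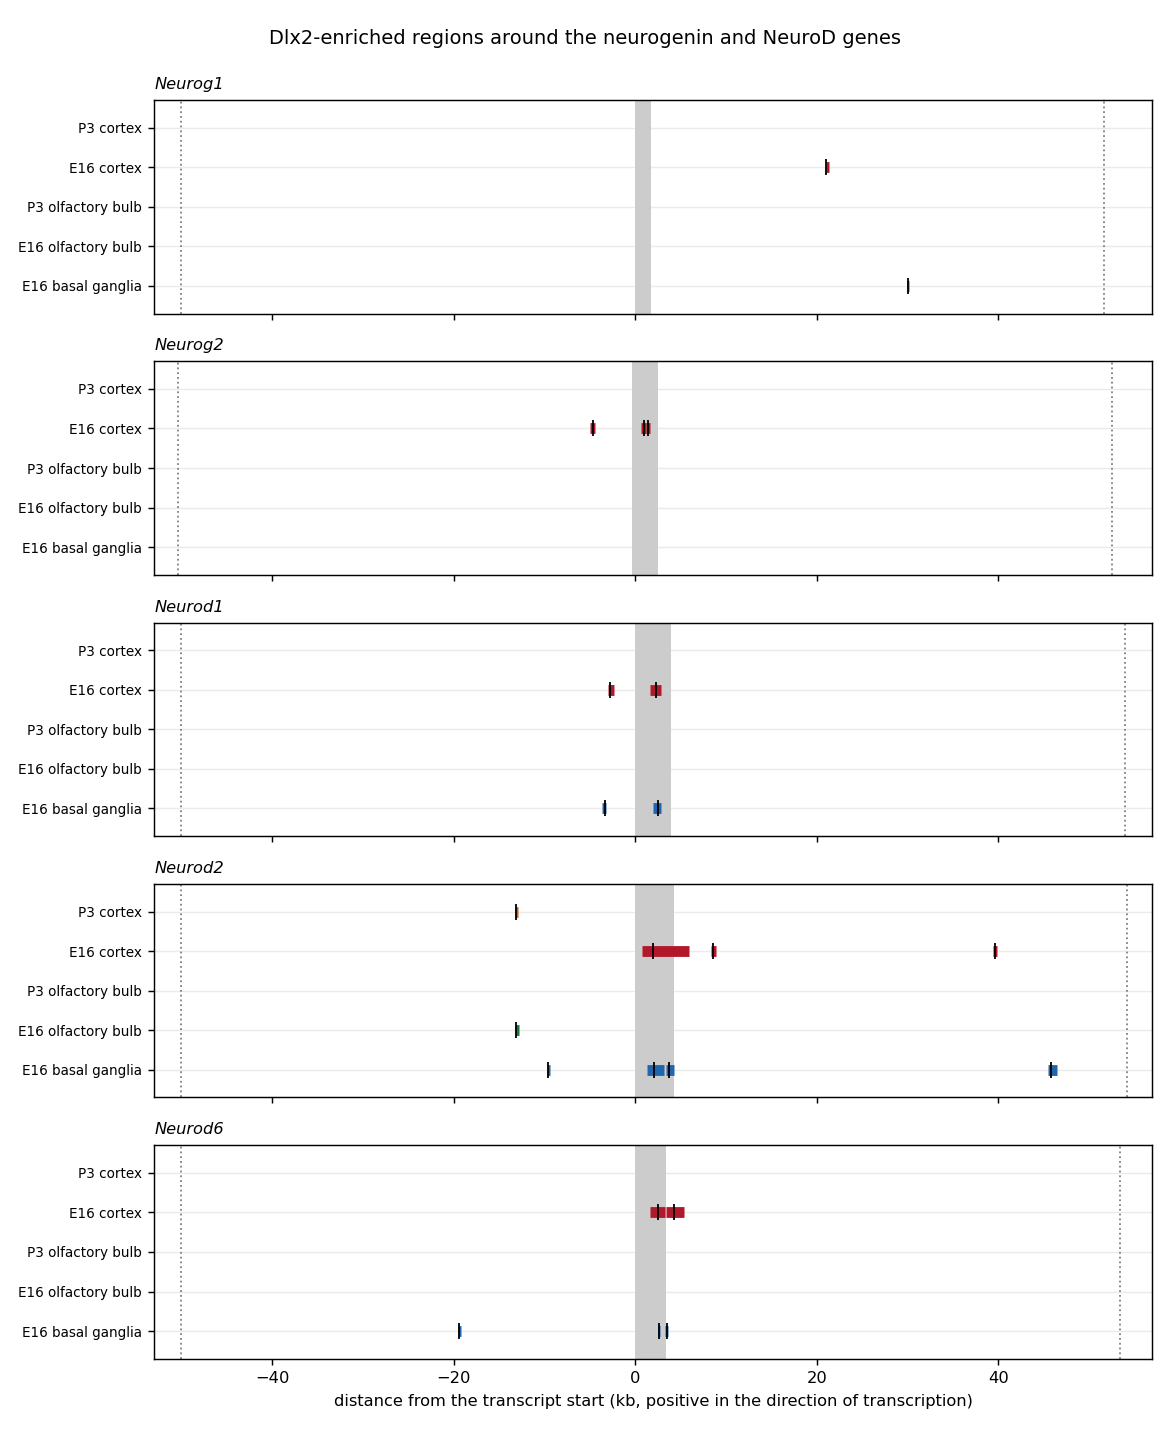
Regions (coloured bars) and summits (black ticks) around each gene in the 5 lists (rows), against distance from the transcript start in kb, positive in the direction of transcription. The grey band is the gene body and the dotted lines mark 50 kb beyond it. Regions gather at the bodies of 4 genes at E16, while Neurog1 has 1 distant summit in the E16 cortex list and 1 in the E16 basal ganglia list.

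Neurog1 (gene 18014, mm10 chromosome 13, 56250478 to 56252180, minus strand), the proneural gene that marks early progenitors, had no region at the gene itself and only weak ones nearby. The P3 cortex list held no summit within 50 kb of it and the E16 cortex list held 1, with a fold enrichment of 3.91. That summit lay 19.4 kb beyond the 3' end of the gene, within the long noncoding RNA gene 4930550C17Rik. The P3 bulb and E16 bulb lists held none, and the E16 basal ganglia list held 1 with a fold enrichment of 4.12, located 28.4 kb beyond the 3' end. Fold enrichment, a value the authors deposited for each region, compares the pile-up of reads at the summit with an estimate of the local background. The library that gave this estimate is not stated. Both regions were below the median of their lists, reaching percentile 14.1 of the E16 cortex regions and percentile 38.4 of the E16 basal ganglia regions, and their summits lay 9.03 kb apart. The nearest summits in the P3 cortex, P3 bulb and E16 bulb lists lay 350.1 kb away, with a fold enrichment of 24.9 in the P3 cortex, 7.25 in the P3 bulb and 4.76 in the E16 bulb.

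The chemokine gene Cxcl14, which the series title names as a direct target of Dlx1 and Dlx2, lies 36.5 kb upstream of Neurog1 and wholly inside the Neurog1 window. No summit of any of the 5 lists lay between the genes or within 50 kb of Cxcl14 (0 in each list). By the same rule, from 4.04% of all protein-coding genes (P3 bulb) to 42.4% (E16 basal ganglia) had a summit, so most genes had none. The counts of 0 are therefore no result about Cxcl14 as a target, and binding at more distant sites was not tested. The nearest summit to Cxcl14 was 57.5 kb away in the E16 cortex list and 66.6 kb away in the E16 basal ganglia list. In the P3 cortex, P3 bulb and E16 bulb lists it was 305 kb away, with fold enrichments of 24.9, 7.25 and 4.76. All of these are the same regions described for Neurog1.

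No region of any list touched the promoter window of any of the 5 genes, taken as 250 bases before to 50 bases after the transcript start in RefSeq (GRCm38.p6, the same build as mm10). Among all protein-coding genes with such a window, 1.07% were touched in the P3 cortex, 1.26% in the E16 cortex, 0.269% in the P3 bulb, 0.337% in the E16 bulb and 3.73% in the E16 basal ganglia, so 0 of 5 is near the background. The promoters of Neurog1 and Neurod2 are shown because Neurog1 has no region at the gene and Neurod2 has the strongest. Capitals mark TAATTA or CAATTA, core sequences bound by homeodomain factors, and CANNTG, the E-box bound by bHLH factors. The searches covered both strands, and the letters are 5' to 3' on the gene's strand.
Neurog1 promoter, chr13:56252131-56252430, minus strand: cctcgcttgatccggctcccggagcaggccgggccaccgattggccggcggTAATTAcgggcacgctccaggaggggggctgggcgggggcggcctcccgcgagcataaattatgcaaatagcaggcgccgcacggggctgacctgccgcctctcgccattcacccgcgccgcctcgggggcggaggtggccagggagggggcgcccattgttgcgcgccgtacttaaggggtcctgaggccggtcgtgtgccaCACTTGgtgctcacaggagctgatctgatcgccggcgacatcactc
Neurod2 promoter, chr11:98329596-98329895, minus strand: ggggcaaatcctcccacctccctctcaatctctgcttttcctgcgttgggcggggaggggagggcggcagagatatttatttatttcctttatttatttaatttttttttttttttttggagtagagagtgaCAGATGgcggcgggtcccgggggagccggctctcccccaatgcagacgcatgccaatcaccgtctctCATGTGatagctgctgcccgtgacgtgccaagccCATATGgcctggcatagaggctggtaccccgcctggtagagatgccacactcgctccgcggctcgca
The Neurog1 promoter held TAATTA once, with its first base at -199 from the transcript start, and was the only one of the 5 to do so. The letters occur in 5.29% of all 32851 promoter sequences of that length. CAATTA was in 0 of the 5 and in 8.0% of all promoters. CANNTG was in 4 of the 5, with 1 match at Neurog1 and 3 at Neurod2 and none at Neurog2, and in 72.3% of all promoters. A match describes the letters only, and the same holds where none was found. Sequence at the summits themselves was not analysed here.

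Neurog2 (gene 11924, chromosome 3, 127632733 to 127635636, plus strand), the main proneural gene of the cortex, had summits in the E16 cortex list alone. The counts were 0 in the P3 cortex, 3 in the E16 cortex, 0 in the P3 bulb, 0 in the E16 bulb and 0 in the E16 basal ganglia. Of the 3 regions, 1 lay upstream, with its summit 4.68 kb before the transcript start inside the noncoding gene Gm40147 and a fold enrichment of 5.0. The other regions lay in the body, 955 and 1409 bp after the start, with fold enrichments of 3.45 and 3.90. Their widths were 524 and 404 bp, and together they covered 32.0% of the body. By fold enrichment the body regions stood low in the E16 cortex list, at percentiles 4.96 and 12.2, and the upstream one stood at percentile 49.9. In the E16 basal ganglia list the nearest summit was 59.7 kb from the gene (fold enrichment 3.73), just beyond the window. With 3 summits in the E16 cortex and 0 in the E16 basal ganglia, none of the 3 above the median of its list, the contrast between these libraries has no replicate check.

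Neurod1 (gene 18012, chromosome 2, 79452637 to 79456636, minus strand), a direct target of the neurogenins in newborn neurons, had the same layout in both E16 lists that held it. The P3 cortex had no summit in the window, the E16 cortex had 2, the P3 bulb and E16 bulb had 0, and the E16 basal ganglia had 2. In both E16 lists 1 region lay inside the body and 1 lay upstream. The body region spanned 1185 bp with a fold enrichment of 8.58 in the E16 cortex and 823 bp with a fold enrichment of 5.56 in the E16 basal ganglia. Its summits lay 2320 and 2468 bp after the transcript start, 148 bp apart, and the basal ganglia region fell wholly inside the cortex region. The upstream summits lay 2.75 kb before the start in the E16 cortex (fold enrichment 5.03) and 3.36 kb before it in the E16 basal ganglia (3.52), and those regions did not overlap. The next summit outside the window lay 582 kb from Neurod1 in the E16 cortex and 267 kb from it in the E16 basal ganglia.

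Neurod2 (gene 18013, chromosome 11, 98325415 to 98329645, minus strand), which acts in maturing glutamatergic neurons, carried the strongest region of the family. It was the only member with summits in 4 lists, 1 in the P3 cortex, 3 in the E16 cortex, 0 in the P3 bulb, 1 in the E16 bulb and 4 in the E16 basal ganglia. The E16 cortex region over the body spanned 5219 bp (98323726 to 98328944), covered 83.4% of the gene and ran past its 3' end. Its fold enrichment of 49.1 ranked 11 of 6333 in the list, with a −log10 q of 280.3, and its width stood at percentile 98.8 of the list. Among the 240 protein-coding genes of at most 5 kb with a known transcript start and a summit in the body in that list, Neurod2 ranked 3 by fold enrichment. In the E16 basal ganglia 2 regions lay in the same place, with fold enrichments of 9.84 (98326455 to 98328366) and 5.86 (98325339 to 98326205), and covered 63.9% of the body. The stronger of them ranked 1233 of 14795. The cortex summit and the stronger basal ganglia summit were 133 bp apart, 1992 and 2125 bp after the transcript start.

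The remaining 6 Neurod2 summits lay outside the gene, and 5 of them were closer to another protein-coding gene. Besides Neurod2 the window holds parts or all of Cdk12, Gm33099, Ppp1r1b and Stard3. Ppp1r1b encodes DARPP-32, a signalling protein of striatal projection neurons, and none of the 5 lists had a summit in its body. The E16 cortex had a region 4.40 kb beyond the 3' end of Neurod2 (fold enrichment 7.38) and another 8.85 kb from the kinase gene Cdk12 (4.68). The E16 basal ganglia had a region 2.73 kb from Cdk12 (7.62) and another inside the protein-coding gene Gm33099 (3.02). The P3 cortex summit (fold enrichment 4.99) and the E16 bulb summit (4.32) lay 13.1 kb upstream of Neurod2, inside the noncoding gene Gm38970 and within 1.87 kb of Gm33099. They were 28 bp apart, and their regions overlapped by 302 bp. Neither of these regions overlapped a region of the E16 cortex or E16 basal ganglia lists. Over all regions, 14.1% of the P3 cortex list overlapped an E16 bulb region and 18.1% of the E16 bulb list overlapped a P3 cortex region. The region names carry the word dedup in 0 of 2139 cases in the P3 cortex and in all 1666 in the E16 bulb, and the part of this in the overlap was not tested.

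Neurod6 (gene 11922, chromosome 6, 55677818 to 55681263, minus strand), expressed in postmitotic glutamatergic neurons, had regions toward and across its 3' end. The P3 cortex list held 0 summits in its window, the E16 cortex 2, the P3 bulb 0, the E16 bulb 0 and the E16 basal ganglia 3. The E16 cortex regions spanned 1593 bp in the body (fold enrichment 6.53) and 1939 bp across its 3' end (11.3), with summits 2480 and 4265 bp after the transcript start. The E16 basal ganglia regions at the gene were narrower, at 314 bp in the body (3.52) and 387 bp across the 3' end (3.91). The third basal ganglia summit lay 19.4 kb upstream, inside the noncoding gene Gm34676 (4.93). Coverage of the Neurod6 body was 46.5% in the E16 cortex and 14.8% in the E16 basal ganglia.

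**Figure D3:**
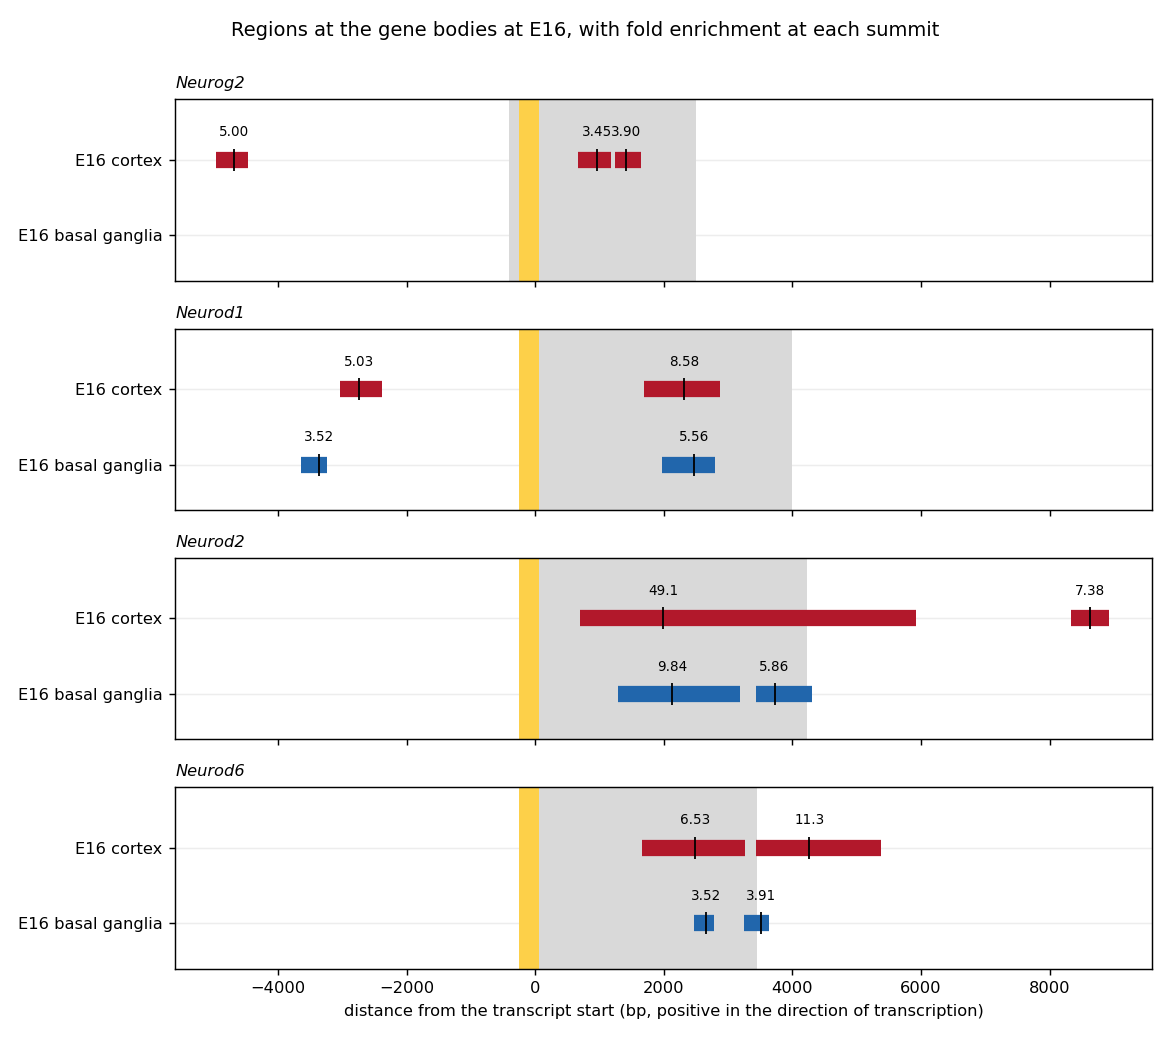
Regions (bars) and summits (black ticks, with fold enrichment above) at 4 genes in the E16 cortex (upper row of each panel) and the E16 basal ganglia (lower row), against distance from the transcript start in bp. The grey band is the gene body and the yellow band the promoter window of 300 bases. The regions sit after the start or upstream of the promoter window, and none touches it.

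Where regions touched a body they did so after the transcript start. The 11 such regions ended between 609 and 3390 bp short of the promoter window. Of short genes with a summit in the body, 18.3% also had a region on the promoter window in the E16 cortex and 32.7% did in the E16 basal ganglia, so 0 of 4 members in the E16 cortex and 0 of 3 in the E16 basal ganglia are near the background. The strongest body summit lay 62.4% of the way along Neurog2, 58.0% along Neurod1, 47.1% along Neurod2 and 72.0% along Neurod6 in the E16 cortex, where the median short gene had 53.7%. In the E16 basal ganglia it lay at 61.7% of Neurod1, 50.2% of Neurod2 and 76.9% of Neurod6, where the median was 47.3%.

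The cortex at P3 and at E16 shared no region at these genes. Neither the 1 P3 cortex region nor any of the 11 E16 cortex regions had a partner, and the P3 summit was 15.1 kb from the closest E16 one. Of all P3 cortex regions 5.14% had a partner in the E16 cortex, and of all E16 cortex regions 1.71% had one in the P3 cortex, so none shared is near the background. Age was not the only difference, since the region names carry the word dedup in 0 of 2139 cases in the P3 cortex and in all 6333 in the E16 cortex. That difference in naming and age cannot be told apart. In the olfactory bulb the 0 P3 regions and 1 E16 region gave no overlap to describe, where 71.5% of P3 bulb regions and 31.6% of E16 bulb regions were shared over the whole lists.

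The E16 cortex and E16 basal ganglia lists shared regions inside or at the ends of Neurod1, Neurod2 and Neurod6. The count was 4 of 11 cortex regions and 5 of 10 basal ganglia regions, beside 61.5% of all cortex regions and 26.4% of all basal ganglia regions. The 4 cortex regions formed 6 overlapping pairs with those 5. In all 6 the cortex region was the wider, by 1.44 times at Neurod1, 2.73 and 6.02 times at Neurod2, and 4.12, 5.01 and 5.07 times at Neurod6. Over all 4405 overlapping pairs of the 2 lists the cortex region was wider in 46.9%. A single cortex region stands in more than 1 pair, so the pairs are not independent, and read depth, which can move width, is unknown. At E16 the olfactory bulb region shared nothing with the basal ganglia or the cortex, although 72.7% of all E16 bulb regions overlapped a basal ganglia region and 8.52% a cortex region. In the other direction, 0 of 10 basal ganglia regions and 0 of 11 cortex regions at these genes overlapped a bulb region, near the 8.16% and 2.29% of all regions that did. At P3 the cortex region had no partner in the bulb list, where 8.88% of P3 cortex regions did, and 25.6% of P3 bulb regions had one in the cortex.

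**Figure D4:**
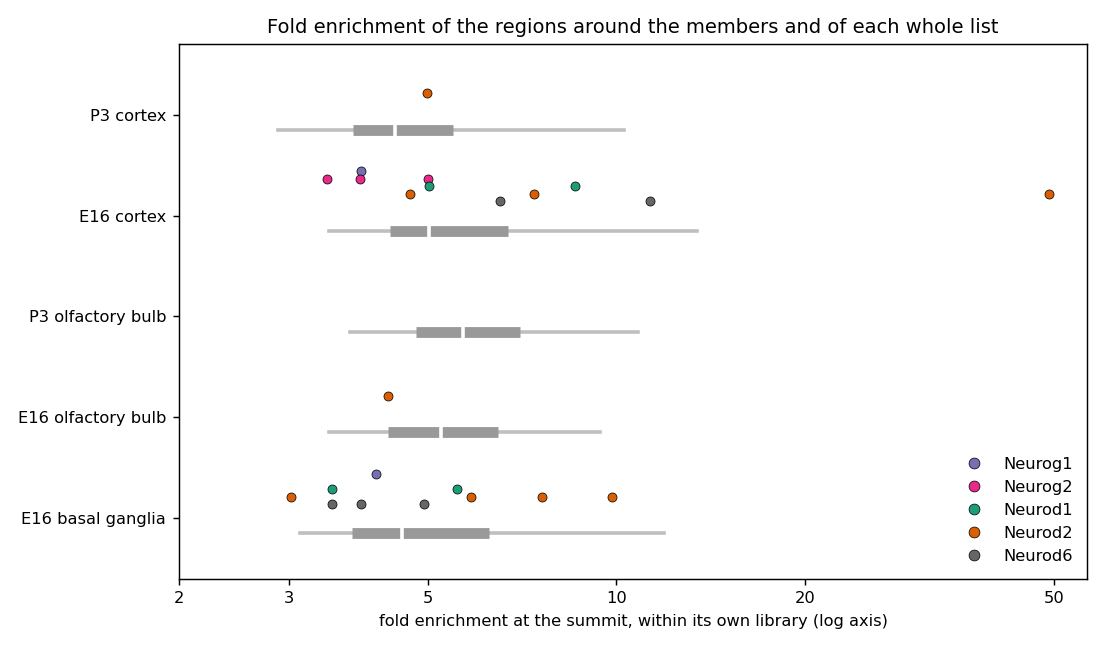
Fold enrichment at the summit (x axis, log scale) of each region around the 5 genes (points coloured by gene), above the spread of its whole list (thin grey line from percentile 5 to 95, thick line from 25 to 75, white tick the median). Values belong to their own library. The Neurod2 body region of the E16 cortex at 49.1 lies far above the line of its list, and the other E16 cortex points run from 3.45, a Neurog2 region just below the line's lower end of 3.48, to 11.3.

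By strength the regions were otherwise ordinary for their lists. By median fold enrichment the 11 E16 cortex regions had 5.03, where the whole list had 5.02, and the 10 E16 basal ganglia regions had 4.53, where the whole list had 4.55. Regions over 1 kb made up 4 of the 11 in the E16 cortex, where the list had 25.2%, and 1 of the 10 in the E16 basal ganglia, where it had 13.8%. In these lists no region of a neurogenin was above the median, while Neurod1, Neurod2 and Neurod6 had 6 of their 7 regions above it in the E16 cortex and 5 of 9 in the E16 basal ganglia.

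Other genes of the pathway were counted by the same 50 kb rule, under which 12.4% of all protein-coding genes had a summit in the P3 cortex, 28.7% in the E16 cortex, 4.04% in the P3 bulb, 6.62% in the E16 bulb and 42.4% in the E16 basal ganglia. Among 10 genes downstream of the neurogenins in cortex, 1 had a summit in the P3 cortex, 8 in the E16 cortex, 0 in both bulb lists and 9 in the E16 basal ganglia, and the P3 cortex and bulb counts are near the background. Their strongest regions within 50 kb were those of Tbr1, a T-box factor of deep-layer neurons, and Slc17a7, the vesicular glutamate transporter gene. Fold enrichments in the E16 cortex and E16 basal ganglia were 48.5 and 11.1 for Tbr1, and 21.4 and 12.3 for Slc17a7. In both lists the summit lay in the body of Tbr1 but outside the body of Slc17a7. Of 8 genes listed as inhibitors (Id genes, which sequester bHLH partners, and Hes and Hey genes), 7 had a summit in each of those 2 lists. Whether each of them, Hes6 included, acts as an inhibitor was not tested. Id1 had the strongest region in both (14.0 and 11.2), with its summit outside the Id1 body. The P3 cortex had 1, within 50 kb of Id4 (5.05), and the bulb lists had 0, also near the background.

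The other proneural and neuronal bHLH factors, of which Bhlhe22, Neurod4 and Nhlh1 are also counted downstream, were near the share of all protein-coding genes in the E16 cortex and E16 basal ganglia. Of 12, a summit was near 2 in the P3 cortex, 3 in the E16 cortex, 1 in the P3 bulb, 1 in the E16 bulb and 6 in the E16 basal ganglia. Bhlhe22, a bHLH factor of cortical projection neurons, led this group in the E16 cortex (12.7). The E-protein genes Tcf3, Tcf4 and Tcf12, whose products pair with bHLH factors, had summits in 2 of 3 cases in the P3 cortex, E16 cortex and E16 bulb, 0 in the P3 bulb and 3 in the E16 basal ganglia. Their strongest regions had fold enrichments of 21.9 at Tcf3 in the E16 cortex and 17.2 at Tcf4 in the E16 basal ganglia. Tcf4 held 89 summits in its body in the E16 cortex and 37 in the E16 basal ganglia. A longer body gives a wider window, and no share was computed for genes as long as these.

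For comparison, 7 GABAergic genes were counted (Dlx1, Dlx2, Dlx5, Dlx6, Gad1, Gad2 and Slc32a1). A summit was near 4 in the P3 cortex, 7 in the E16 cortex and 7 in the E16 basal ganglia. In the bulb it was near 4 at P3 and 6 at E16. The windows of Dlx1 and Dlx2 share summits, as do those of Dlx5 and Dlx6, so these genes are not independent cases. In the P3 cortex only these Dlx genes had a summit. In the P3 cortex, both bulb lists and the E16 basal ganglia the strongest of these regions was shared by Dlx5 and Dlx6, with a fold enrichment of 9.20 in the P3 cortex, 13.4 in the P3 bulb, 15.2 in the E16 bulb and 35.6 in the E16 basal ganglia. Markers of oligodendrocytes, microglia and endothelial cells, 9 genes in all, had 2 in the P3 cortex, 2 in the E16 cortex, 0 in the P3 bulb, 1 in the E16 bulb and 4 in the E16 basal ganglia, near the shares of all protein-coding genes. The bulb lists held summits within 50 kb of GABAergic genes. The neurogenin and NeuroD genes had 0 of 5 at P3 and 1 of 5 at E16. These counts are near the shares of all protein-coding genes and are no result about the family. The difference between these lists of genes was not tested.

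**Figure D5:**
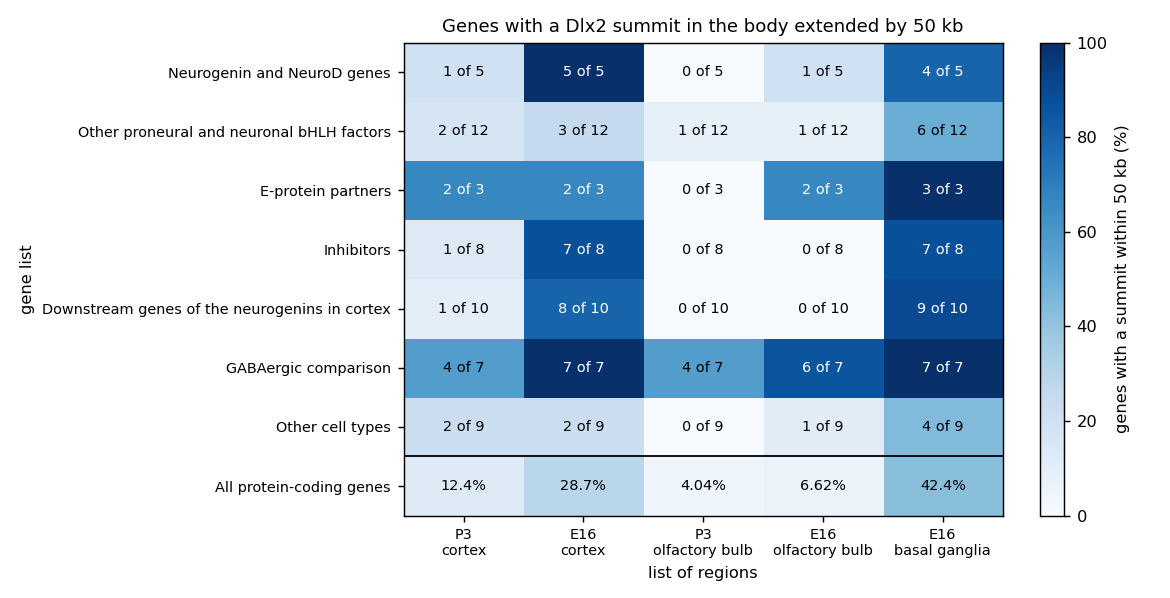
Number of genes in each list (rows) with a Dlx2 summit in the body extended by 50 kb, for each list of regions (columns), coloured by the share in percent, with all protein-coding genes in the bottom row. Neurogenin and NeuroD genes, the genes listed as inhibitors and the downstream genes are filled at E16 in the cortex and basal ganglia. In the bulb lists their low counts are near the shares of all protein-coding genes. GABAergic genes are above those shares there, with neighbouring Dlx genes sharing summits.

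The genes with the most similar pattern were looked for among protein-coding genes on other chromosomes. The pattern is the percentile, within its list, of the strongest region within 50 kb, and 0 where there is none, over the 5 lists. Likeness is the sum of absolute differences in percentile points. Neurod1 was closest to Iars2 (0.417), Pld2 (0.796) and 4930544D05Rik (1.39), and Neurod6 to Fads1, Fen1 and Myrf (each 1.43), which are neighbours with the same region. Neurog1 was closest to Sp5 (1.36), Pik3cd and Slc25a33 (each 3.42). Neurod2 had no near match, with Ptprs at 25.4 and Sort1 at 34.9. It has a region in every list but the P3 bulb, so more values can differ than for a gene with 0 in most lists. In the P3 cortex and E16 bulb that region lay closer to Gm33099. The larger distance is therefore no result about Neurod2 itself. For Neurog2 54 genes were tied at a distance of 0, the first by name being Adm2, Arhgef17 and Baiap2l1, since regions with equal fold enrichment share a percentile. Within the family the closest pair was Neurod1 and Neurod6, at 16.2.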

How the data were processed

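Anti-Dlx2 ChIP-seq was done on 5 whole-tissue samples, 1 library each. Per the submitters' processing notes, the tools were Trimmomatic, Bowtie2, SAMtools and MACS2 and the build was mm10, all with no version. No calling threshold or control library is stated in the sources used here, and depth is unknown. The deposited narrowPeak lists hold, per region, the authors' fold enrichment as a ratio, its p-value and q-value as −log10, a score that was not used, and the summit offset. These values describe and rank regions within a list only. Since depth is unknown, list lengths (734 to 14795 regions) limit what a missing region can mean.

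Summits were placed in gene bodies extended by 50 kb with Python 3.11.15 and pandas 2.3.3, using the RefSeq gene table of GRCm38.p6, and coordinates count from 1. Transcript starts and promoters came from the RefSeq promoter table of that build, which matched all 5 genes. A shared region is one with 1 bp or more in common with a region of the other list. Counting was tested on simulated data. The planned motif shares at summits were not computed, because no genome sequence was used here. The rule for named genes took the 5 members, coding genes whose body holds a summit in a window, the 2 strongest genes of each pathway list and 3 most similar genes; some of the genes it takes are not reported here. Members and lists were chosen with earlier results of these data known.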

Additional observations from a re-analysis of the deposited data

How the results depend on the processing

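No paired analysis was possible because each group has 1 library. Of 100 alternative values for 20 counts, 76 stayed within 1.5 times. The 76 include counts that were already 0, such as those of the P3 bulb and most counts of shared regions. A stricter rule could not change a 0, so the 76 overstate how stable the counts are. With windows of 10 kb, with summits nearest to the member alone, or with summits in the body (chosen after seeing the data), the P3 cortex had 0 members and 0 summits and the E16 bulb had 0 and 0. In the body the E16 cortex had 5 summits and the E16 basal ganglia had 4. With every list reduced to its top 734 regions by −log10 q, the E16 cortex had 2 members and 2 summits. The E16 bulb had 0 and 0, and the E16 basal ganglia 0 and 0. The share of all protein-coding genes under this cut was not computed. Regions of at most 1 kb left 7 summits in the E16 cortex. Of regions shared at E16, 1 in the cortex and 1 in the basal ganglia overlapped by at least 50% of both, and 3 in the basal ganglia had a summit within 200 bp of a cortex summit. Windows of 100 kb, a −log10 q of at least 5, and any base of a region in place of its summit moved no count by more than 1.5 times. The order of the 2 longest lists did change with windows of 100 kb. The E16 basal ganglia then had 5 members and 15 summits, and the E16 cortex had 5 and 11. The background by gene length was also added after seeing the data. The motif alternative was not run. Unknown depth and 1 library per group limit every comparison between lists.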
